A study of Mus musculus with 9 samples.

Results

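The 9 genes described here are specifiers of the neural crest: the transcription factors Sox10, Foxd3, Sox9, Tfap2a, Tfap2b, Msx1, Msx2 and Ets1 and the receptor Ngfr. They were taken by name from a table of 56481 gene symbols and not by a rule on their values. Earlier results of these data were known when the list was made, so the choice was not blind to them. All 9 passed the filter on low counts in both comparisons with neural crest cells. The table held RNA sequencing counts for 9 mouse libraries, 3 in each of 3 groups. The pNCC group was primary neural crest cells of E13.5 embryos, kept in medium with 10% fetal bovine serum. Induced cells (iCEC) were made from neural crest cells in a serum replacement medium with 5% KSR, non-essential amino acids, 2-mercaptoethanol and SB431542 at 5 µM, which blocks the type I receptor for TGF-β. That medium was changed every 2 days, clusters were seen from day 4, and colonies were examined on day 12. The cells labelled primary corneal endothelium (pCEC) had the same serum medium as pNCC. The labels give no strain, genotype, sex or donor age for the groups, and no induced culture without SB431542 was among the 9 libraries, so the inhibitor, the change of medium and the time in culture cannot be told apart. The labels do not say whether libraries of a group came from separate animals or cultures, so the p-values below measure only the spread between these libraries. How much of that spread is technical is not known, and sex-linked counts given below differ between libraries of iCEC and of pCEC.

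The neural crest arises at the border of the neural plate, leaves the neural tube by an epithelial to mesenchymal transition, and gives rise to peripheral neurons and glia, melanocytes, facial skeleton and, in the eye, the corneal endothelium and stroma. Border genes of the Msx and Tfap2 families act first, and Foxd3, Sox9, Sox10 and Ets1 then mark premigratory and migrating crest. Sox10 and Foxd3 are largely restricted to crest and its glial and pigment derivatives, whereas Sox9, Tfap2a, Tfap2b and Msx2 are also active in surface epithelia, and Msx1, Ngfr and Ets1 in mesenchyme, nerve, vessels, leukocytes or other tissues.

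Total counts lay between 27389292 and 47967113 per library. Levels below are CPM, counts scaled to a common library total after adjustment by trimmed mean of M values (TMM), and 3 counts, the floor used for a count of 0, correspond to 0.0616 to 0.126 CPM. These intervals and floors cover counting error only. In bulk RNA, fewer cells of a type and less RNA per cell cannot be told apart. The marker genes did not follow the group labels throughout. Krt12, a keratin of the corneal epithelium, was at 8985, 11492 and 12808 CPM in pCEC 1 to 3, at 0 in iCEC 1 and 2, and at 0.0249 CPM in iCEC 3. The summed level of 12 surface epithelium markers was 84.8 to 138 CPM in pNCC, 15600 to 22523 CPM in iCEC and 35556 to 54883 CPM in pCEC, against 908 to 980, 2350 to 2552 and 1605 to 1893 CPM for 12 corneal endothelium markers. In pNCC, 8 fibroblast markers summed to 25101 to 33737 CPM and 8 skeletal muscle markers to 67.7 to 80.0 CPM. The fibroblast sum was 22.6 to 128 CPM in iCEC and 981, 10149 and 6023 CPM in pCEC 1 to 3. Labels name polyA RNA for 7 libraries and total RNA for pCEC 2 and 3, and pCEC 1 had the lowest level of its group for 8 of the 9 genes, all but Msx1. The share of all genes lowest in pCEC 1 was not counted. The Y-linked gene Ddx3y had 2946 counts in iCEC 2 and 6 and 0 counts in iCEC 1 and 3, where Xist had 45878 and 57756 counts against 6 in iCEC 2. The iCEC libraries thus did not all come from cells of the same sex. In pCEC 1 to 3 Xist had 75, 8505 and 3907 counts and Ddx3y 2771, 1004 and 895. Between pCEC 1 and pCEC 2 and 3 the RNA label, the fibroblast sum and the sex-linked counts differ together, so they cannot be told apart.

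Comparing iCEC with the cells they were made from, 3 of the 9 genes were higher (Sox9, Tfap2a and Msx2), 4 were lower (Sox10, Foxd3, Ngfr and Ets1), and Tfap2b and Msx1 did not pass. Calls used edgeR's quasi-likelihood test with Benjamini-Hochberg adjustment over all genes tested, at 0.05. The background was 31.3% of 16293 genes called, 16.1% higher and 15.1% lower. Libraries of the 2 groups did not overlap for 7 of the 9 genes, against 51.9% of all genes tested. Without pNCC 2, 4 of the 9 genes were called in this comparison. In pCEC against pNCC, 2 genes were higher (Tfap2a and Tfap2b) and 4 lower (Sox10, Foxd3, Msx1 and Ets1), where 62.5% of 16608 genes were called, 30.3% higher and 32.2% lower, so the members' share was near the background. There 5 of the 9 genes did not overlap, against 71% of all genes. In iCEC against pCEC, 7 of the genes could be tested, since Sox10 and Foxd3 were left out by the filter. In this comparison Sox9, Msx1, Msx2 and Ets1 were higher and Ngfr lower, where 20.4% of 16278 genes were called, 10.5% higher and 9.92% lower. Libraries did not overlap for 6 genes, against 44% of all genes. Without pCEC 1, 2 or 3, or without the filter on low counts, 3 of these 5 calls held. By class, both crest-restricted genes were lower than in pNCC in iCEC and in pCEC. Of the 4 genes also active in surface epithelia 3 were higher in iCEC and 2 in pCEC, with none lower, and of the 3 genes of crest and other tissues 2 were lower in each, with none higher. The difference between classes was not tested. The median log2 fold change over the tested genes was 0.65, -0.35 and 2.59 in the 3 comparisons, and over all genes 0.05, -0.01 and 0.04. The 3 comparisons share libraries in pairs, so their values are set side by side and no overlap between them is given. With the 1 polyA library of pCEC alone, none of the 5 calls of iCEC against pCEC held at 3 against 1 libraries, where edgeR called 0 of all genes and 2529 had an unadjusted p under 0.05.

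**Figure D1:**
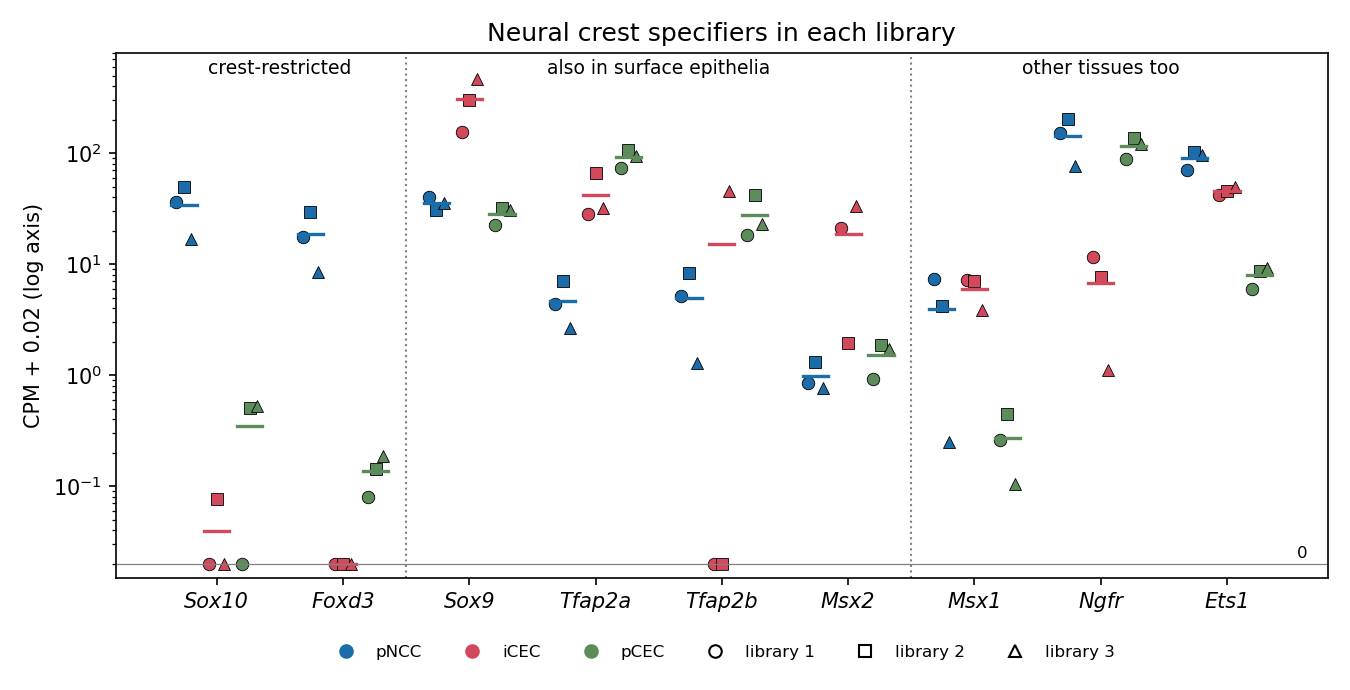
Level of each of the 9 genes in every library, as TMM-scaled CPM plus 0.02 on a log axis, with 1 point per library and a horizontal line at each group mean. Sox10 and Foxd3 lie at or near 0 in all 3 iCEC libraries, while Tfap2b is at 0 in iCEC 1 and 2 and at 45.8 CPM in iCEC 3.

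**Figure D2:**
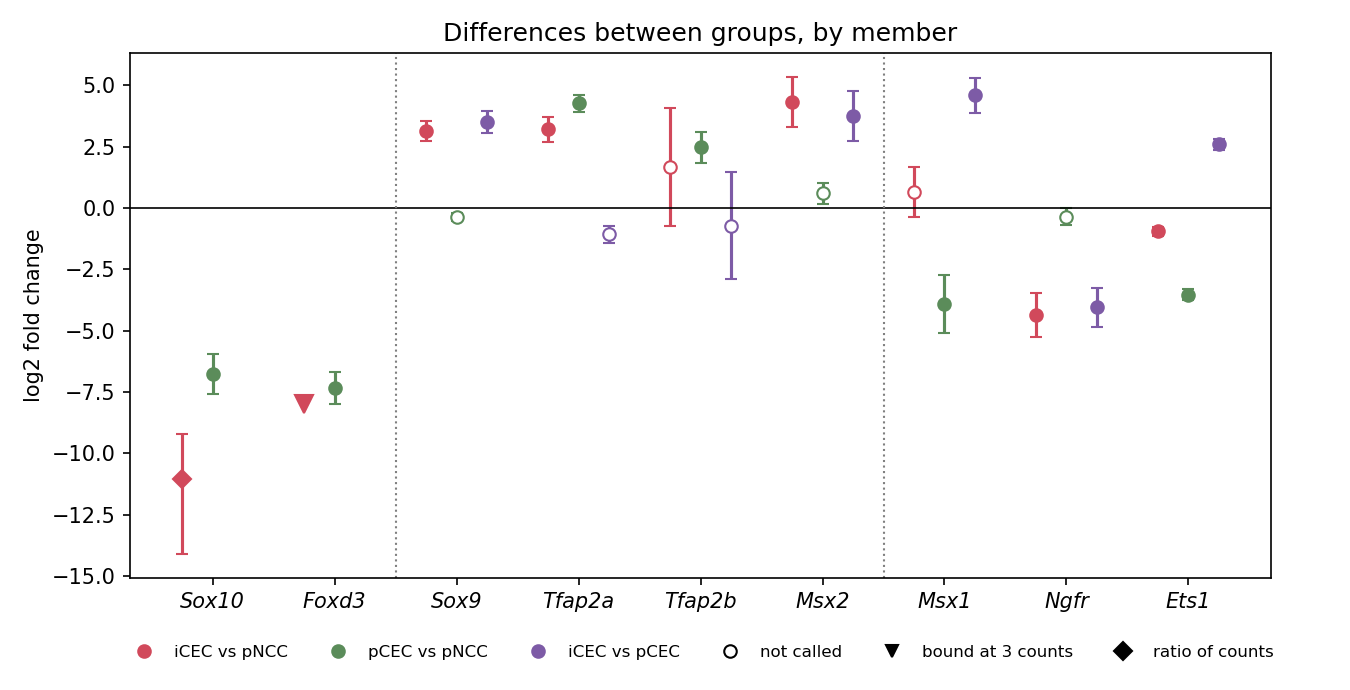
Log2 fold change with its standard error for the 9 genes in the 3 comparisons. Filled points passed an adjusted p of 0.05 and open points did not. The triangle is a bound at 3 counts per library (Foxd3), and the diamond the quotient of summed counts, with a 95% interval from counting error (Sox10).

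Foxd3, Tfap2b and Sox10 had 0 counts in whole iCEC libraries, Foxd3 in all 3, Tfap2b in iCEC 1 and 2 and Sox10 in iCEC 1 and 3. No promoter was matched for Sox10. The RefSeq promoters of Foxd3 and Tfap2b (build GRCm38.p6, plus strand, the 250 bases before the start) are shown here because they differ in CpG content, with each CpG in capitals. The Foxd3 window is chr4:99656049-99656298 and the Tfap2b window chr1:19211804-19212053.
Foxd3: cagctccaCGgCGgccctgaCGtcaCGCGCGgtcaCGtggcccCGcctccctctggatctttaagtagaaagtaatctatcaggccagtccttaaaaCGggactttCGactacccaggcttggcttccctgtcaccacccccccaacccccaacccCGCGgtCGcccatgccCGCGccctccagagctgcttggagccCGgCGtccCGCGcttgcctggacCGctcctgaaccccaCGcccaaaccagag
Tfap2b: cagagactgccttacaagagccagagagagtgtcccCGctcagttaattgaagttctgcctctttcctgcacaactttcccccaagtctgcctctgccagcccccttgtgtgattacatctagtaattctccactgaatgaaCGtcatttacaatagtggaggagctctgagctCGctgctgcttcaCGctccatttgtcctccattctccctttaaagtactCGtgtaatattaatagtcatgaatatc
The Foxd3 window held 21 CpGs at 65.6% GC and the Tfap2b window 5 CpGs at 46.4% GC. Over all 32851 promoters of this length the median was 6 CpGs (quartiles 2 and 16) and 52.4% GC (quartiles 45.2% and 61.2%). The RefSeq start used for Tfap2b, at 19212054, lies inside the longer GENCODE gene, which starts at 19208914. Promoters were matched for 6 of the 9 genes, in 7 windows. On both strands these windows were searched for the TFAP2 motif GCCNNNGGC, the SOX motif ACAAAG, and the E-box core CACCTG, which are in 13.7%, 16.5% and 17.2% of all promoters. The 1 match was a CACCTG in the Msx1 window. Such a match is a description of letters, not of a bound site.

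Both crest-restricted genes were near 0 in iCEC. Sox10 (chromosome 15, 79154908 to 79165240, minus strand, mm10), the SOXE factor that maintains migrating crest and drives its glial and pigment lineages, was at 36.1, 49.9 and 16.9 CPM in pNCC 1 to 3. It was at 0, 0.0574 and 0 CPM in iCEC 1 to 3, from 2 counts in all. In pCEC it had 0, 0.489 and 0.504 CPM, from 0, 16 and 12 counts. Every pNCC library lay above every other library. Over summed counts pNCC exceeded iCEC 2127-fold, with a 95% counting interval of 589 to 17574, from 3583 against 2 counts. Against pNCC, Sox10 fell by 6.77 ± 0.811 (SE) on the log2 scale in pCEC (109-fold, edgeR adjusted p = 0.000356, n = 3 and 3). Without pCEC 1, the library with 0 counts, the difference was -6.09, and with that polyA library alone the fitted value of -13.21 is no bound. For pCEC against iCEC there was no test. The ratio of summed counts was 19.3, with an interval of 4.86 to 167 from 28 against 2 counts.

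Foxd3 (chromosome 4, 99656299 to 99658622, plus strand), a forkhead repressor that keeps early crest undifferentiated, was at 17.7, 29.7 and 8.47 CPM in pNCC. No count fell on it in iCEC 1, 2 or 3. In pCEC it had 2, 4 and 4 counts, or 0.0599, 0.122 and 0.168 CPM. Its 3 pNCC libraries therefore stood clear of the other 6. Against the floor of 3 counts per library, Foxd3 was at least 251-fold lower in iCEC than in pNCC, from 0 against 1948 counts (edgeR adjusted p = 0.00368). In pCEC it fell by 7.35 ± 0.648 (SE) on the log2 scale (163-fold, edgeR adjusted p = 7.83e-05), and the difference was -8.21 with the polyA library of pCEC alone. The low levels of both genes in pCEC accompanied a Schwann cell and glia marker sum of 464 to 553 CPM, against 298 to 306 CPM in pNCC and 132 to 240 CPM in iCEC. That sum was led by Erbb3 and Mbp, which other cells also express. The part of such cells in the Sox10 and Foxd3 counts was not tested.

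Among the genes also active in surface epithelia, Sox9 had the highest iCEC level per kb of all 9 members. Sox9 (chromosome 11, 112782224 to 112787760, plus strand), a SOXE factor of premigratory crest, cartilage and epithelial progenitors, was at 40.0, 31.0 and 35.3 CPM in pNCC. It was at 154, 301 and 464 CPM in iCEC and at 22.3, 32.1 and 30.6 CPM in pCEC. All 3 iCEC libraries lay above the other 6, which overlapped with each other. Sox9 was higher in iCEC than in pNCC by 3.14 ± 0.426 (SE) on the log2 scale (8.84-fold, edgeR adjusted p = 0.00391) and higher than in pCEC by 3.52 ± 0.462 (11.4-fold, adjusted p = 0.00578). The difference between pCEC and pNCC was -0.35 ± 0.163 (adjusted p = 0.0961), and -0.68 with the polyA library of pCEC alone (adjusted p = 0.0362).

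Tfap2a (chromosome 13, 40715302 to 40738376, minus strand) encodes AP-2 alpha, an inducer of crest at the plate border that also acts in epidermis and lens. It was at 4.37, 6.97 and 2.66 CPM in pNCC, at 28.5, 66.2 and 32.4 CPM in iCEC, and at 72.9, 107 and 95.3 CPM in pCEC. The 3 groups did not overlap. Against pNCC it was higher by 3.21 ± 0.512 (SE) on the log2 scale in iCEC (9.28-fold, edgeR adjusted p = 0.0064) and by 4.27 ± 0.359 in pCEC (19.3-fold, adjusted p = 6.78e-05). Between iCEC and pCEC the difference of -1.06 ± 0.345 did not pass (adjusted p = 0.0749), and it did with DESeq2's Wald test (adjusted p = 0.0332) or without iCEC 2 (edgeR adjusted p = 0.0169). Antisense genes overlap Tfap2a, of which Gm47061 had 4 to 26 counts in pNCC, 20 to 46 in iCEC and 99 to 120 in pCEC. The library kit does not mark strand, so their reads cannot be told apart from those of Tfap2a.

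Tfap2b (chromosome 1, 19208914 to 19238576, plus strand) encodes AP-2 beta, a crest and periocular mesenchyme factor that is needed for the cornea. It was at 5.11, 8.32 and 1.26 CPM in pNCC. In iCEC it had 0 counts in libraries 1 and 2 and 1839 counts, or 45.8 CPM, in library 3. In pCEC it was at 18.2, 41.9 and 23.2 CPM, so that iCEC 3 exceeded every other library and iCEC 1 and 2 were below all of them. Over the 3 iCEC libraries the difference from pNCC was 1.67 ± 2.41 (SE) on the log2 scale (edgeR adjusted p = 0.640), and without iCEC 3 it was -10.52 (adjusted p = 0.00903). Against pCEC the difference was -0.73 ± 2.19 (adjusted p = 0.842), and -12.87 without iCEC 3 (adjusted p = 0.000809). Tfap2b was higher in pCEC than in pNCC by 2.47 ± 0.639 (5.55-fold, adjusted p = 0.0125). That call did not hold without the low-count filter (adjusted p = 0.081), in a fit over all 9 libraries (adjusted p = 0.355) or with the polyA library of pCEC alone (adjusted p = 0.138), and without pNCC 2 the difference was 3.07.

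Msx2 (chromosome 13, 53466884 to 53473074, minus strand), a homeobox factor induced by BMP at the plate border, in skull sutures and in surface ectoderm, was at 0.832, 1.29 and 0.744 CPM in pNCC. It was at 21.1, 1.95 and 33.5 CPM in iCEC and at 0.899, 1.86 and 1.72 CPM in pCEC. Of the iCEC libraries, 1 and 3 stood well above the other groups and library 2 was just above the highest pCEC library. Msx2 was higher in iCEC than in pNCC by 4.33 ± 1.02 (SE) on the log2 scale (20.1-fold, edgeR adjusted p = 0.0229) and higher than in pCEC by 3.76 ± 1.02 (13.51-fold, adjusted p = 0.0460). The first call did not hold without iCEC 1 (adjusted p = 0.0528) or without pNCC 1, 2 or 3 (adjusted p = 0.0963, 0.0826 and 0.0952), and was 3.60 without iCEC 3. The second did not hold without iCEC 1 (adjusted p = 0.0934), iCEC 3 (3.03, adjusted p = 0.0575) or pCEC 1, 2 or 3 (adjusted p = 0.147, 0.142 and 0.142), nor without the low-count filter (adjusted p = 0.0861). In pCEC against pNCC Msx2 differed by 0.61 ± 0.427 (adjusted p = 0.254).

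The surface epithelium sum given above was higher in both iCEC and pCEC than in pNCC. Against pNCC, 3 of these 4 genes were called higher in iCEC and 2 in pCEC, where Sox9 and Msx2 did not pass. Sox9 and Msx2 were higher in iCEC than in pCEC, and the sum was higher in pCEC. Of the 12 markers in that sum, 10 were tested in iCEC against pNCC and all 10 were higher. In pCEC against pNCC all 12 were tested, 10 were higher and none lower. There Krt8 and Krt18 did not pass (-0.12 and -0.53 on the log2 scale). Krt8 was at 626 to 2272 CPM in iCEC and 3.15 to 6.20 CPM in pCEC, and Krt18 at 347 to 1167 and 1.11 to 2.32 CPM. Among the 12 markers, Cdh1 was at 3.54 to 5.26 CPM in pNCC, 532 to 1005 CPM in iCEC and 421 to 664 CPM in pCEC. Trp63, the master factor of stratified epithelia, was at 0.915 to 1.69, 219 to 290 and 376 to 387 CPM. Pax6, the eye field factor of lens and corneal epithelium, was at 0.0498 to 0.746 CPM in iCEC and 832 to 976 CPM in pCEC. Their part in the Sox9, Tfap2a, Tfap2b and Msx2 values was not tested. Within iCEC 1 to 3 the surface epithelium sum was 22523, 15600 and 15947 CPM. The sum of 6 gland epithelium markers, led by Ltf (lactoferrin) at 17508, 39603 and 434 CPM, was 20020, 42888 and 572 CPM. The part of either in the differences between iCEC libraries was not tested.

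The genes shared by crest and other tissues showed 3 different patterns. Msx1 (chromosome 5, 37820485 to 37824583, minus strand), a BMP-induced homeobox factor of the plate border, face and limb, was at 7.31, 4.22 and 0.229 CPM in pNCC. It was at 7.18, 7.003 and 3.86 CPM in iCEC and at 0.240, 0.428 and 0.0839 CPM in pCEC. Its lowest pNCC library lay within the pCEC range, and all iCEC libraries were above all pCEC libraries. Msx1 did not pass between iCEC and pNCC (0.65 ± 1.02 SE on the log2 scale, edgeR adjusted p = 0.672). It was lower in pCEC than in pNCC by -3.93 ± 1.18 on that scale (15.2-fold, adjusted p = 0.0234), a call that did not hold without pNCC 1 (adjusted p = 0.0696), pNCC 2 (adjusted p = 0.0540), pCEC 1 (adjusted p = 0.0671) or pCEC 3 (adjusted p = 0.0755), nor without the low-count filter (adjusted p = 0.0745) or with the polyA library of pCEC alone (adjusted p = 0.178). Without pNCC 1 the difference was -3.12, and without pNCC 3 the call held. It was higher in iCEC than in pCEC by 4.59 ± 0.703 (24.1-fold, adjusted p = 0.00811), and by 5.19 without pCEC 2.

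Ngfr (chromosome 11, 95568818 to 95587735, minus strand) encodes p75, the low-affinity neurotrophin receptor used to sort migrating crest and also found on Schwann cells, nerves and basal epithelial cells. It was at 152, 204 and 76.1 CPM in pNCC, at 11.7, 7.66 and 1.09 CPM in iCEC, and at 89.1, 136 and 121 CPM in pCEC. The iCEC libraries were below the other 6, and pNCC and pCEC overlapped. Ngfr fell in iCEC against pNCC by 4.37 ± 0.904 (SE) on the log2 scale (20.7-fold, edgeR adjusted p = 0.0149) and was lower than in pCEC by -4.05 ± 0.797 (16.5-fold, adjusted p = 0.0176). The first call did not hold without pNCC 1 (adjusted p = 0.0537) or pNCC 2 (adjusted p = 0.0546). The second did not hold without iCEC 2 (adjusted p = 0.0521) or without pCEC 1, 2 or 3 (adjusted p = 0.0548, 0.0637 and 0.0608), nor without the low-count filter (adjusted p = 0.0615). Without iCEC 1 the differences were -5.00 and -4.69. In pCEC against pNCC Ngfr differed by -0.35 ± 0.340 (adjusted p = 0.407), and without pNCC 3 by -0.66 (adjusted p = 0.0321).

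Ets1 (chromosome 9, 32636221 to 32757820, plus strand), an ETS factor of cranial crest delamination, vessels and lymphocytes, was at 70.6, 104 and 96.0 CPM in pNCC. It was at 42.1, 45.5 and 49.8 CPM in iCEC and at 5.99, 8.65 and 9.23 CPM in pCEC, so the 3 groups were ordered without overlap. Ets1 fell in iCEC by 0.94 ± 0.191 (SE) on the log2 scale (1.92-fold, edgeR adjusted p = 0.0137), which did not hold without pNCC 2 (adjusted p = 0.0665) or pNCC 3 (adjusted p = 0.0623). It fell in pCEC against pNCC by 3.53 ± 0.216 (11.6-fold, adjusted p = 1.3e-05) and was higher in iCEC than in pCEC by 2.59 ± 0.243 (6.04-fold, adjusted p = 0.0024). Vessel endothelium markers summed to 40.8 to 63.8, 2.18 to 52.1 and 19.9 to 58.2 CPM in pNCC, iCEC and pCEC, and leukocyte markers to 18.3 to 25.7, 5.28 to 81.6 and 47.8 to 75.7 CPM. Of these markers, Ptprc, which defines leukocytes, was at 0 counts in every iCEC library and Cdh5, which defines vessel endothelium, at 0.411, 6.06 and 0 CPM. Flt1, a VEGF receptor, was at 1.40, 45.3 and 22.1 CPM and Itgam, a myeloid integrin, at 4.95, 80.3 and 0 CPM in the same libraries. Mean levels in pNCC, iCEC and pCEC were 10.3, 2.16 and 0.485 CPM for Cdh5 and 29.1, 22.9 and 0.315 CPM for Flt1. The vessel markers Erg (0.970, 0.0759 and 22.9 CPM) and Kdr (2.44, 0.0995 and 10.3 CPM) were highest in pCEC. Their part in the Ets1 levels was not tested. The antisense gene Gm27240 overlaps Ets1 and had at most 27 counts in any library.

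Within pNCC, 7 of the 9 genes had their lowest level in library 3, all but Sox9 and Ets1. The share of all genes lowest in that library was not counted. Over all genes, the root mean square difference of log2 CPM was 0.27 and 0.22 between pNCC 3 and pNCC 1 and 2. Between pNCC 1 and 2 it was 0.18. The highest library exceeded the lowest 2.95-fold for Sox10, 3.51-fold for Foxd3, 2.68-fold for Ngfr, 2.62-fold for Tfap2a and 6.61-fold for Tfap2b, and in each of these library 2 was the highest. For Msx1, with library 1 the highest, it was 31.9-fold, and for Msx2 1.74-fold. Neuron markers summed to 67.9, 101 and 155 CPM in pNCC 1 to 3, of which Tubb3, a tubulin, made up 61.0, 91.5 and 154 CPM. Stmn2, a neuronal tubulin-binding protein, was at 5.76, 7.87 and 0.686 CPM, so the sum rests on Tubb3 and its next member was lowest in pNCC 3. Cdh19, a cadherin of Schwann cell precursors, was at 40.2, 52.2 and 17.2 CPM. The part of these genes' cells in the spread was not tested.

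Per kilobase of exon, the order of the mean levels in pNCC was Ngfr (41.8 CPM per kb), Sox10 (11.2), Ets1 (10.6), Sox9 (8.57), Foxd3 (8.01), Msx1 (1.26), Tfap2a (0.952), Tfap2b (0.772) and Msx2 (0.292). Sox10 and Ets1, Sox9 and Foxd3, and each pair of neighbours from Msx1 to Msx2 differed by less than the larger of their standard deviations. In iCEC Sox9 led at 74.1 CPM per kb, followed by Tfap2a (8.64), Msx2 (5.75), Ets1 (5.41), Tfap2b (2.41), Ngfr (1.97) and Msx1 (1.94), with Sox10 at 0.00627 and Foxd3 at 0. Neighbours from Tfap2a to Msx1 were within that spread. In pCEC Ngfr led at 33.5 CPM per kb, followed by Tfap2a (18.7), Sox9 (6.86), Tfap2b (4.38), Ets1 (0.939), Msx2 (0.456), Sox10 (0.108), Msx1 (0.0809) and Foxd3 (0.0502), of which the last 3 were within it.

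The 9 genes hold 3 pairs of paralogues, whose levels per kb can be set against each other within a library. Sox9 was 0.817, 0.459 and 1.54 times Sox10 in pNCC 1 to 3. In pCEC 2 and 3 it was 48.4 and 44.9 times Sox10, and in the remaining 4 libraries Sox10 had at most 2 counts. Tfap2a was 1.10, 1.08 and 2.73 times Tfap2b in pNCC, 5.17, 3.31 and 5.32 times in pCEC, and 0.915 times in iCEC 3, the 1 iCEC library with Tfap2b counts. Msx2 was 0.108, 0.290 and 3.07 times Msx1 in pNCC, so pNCC 3 had the reverse order of the other 2 libraries. In iCEC that ratio was 2.77, 0.263 and 8.21, with library 2 the reverse of the others, and in pCEC 1 and 2 it was 3.54 and 4.12.

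**Figure D3:**
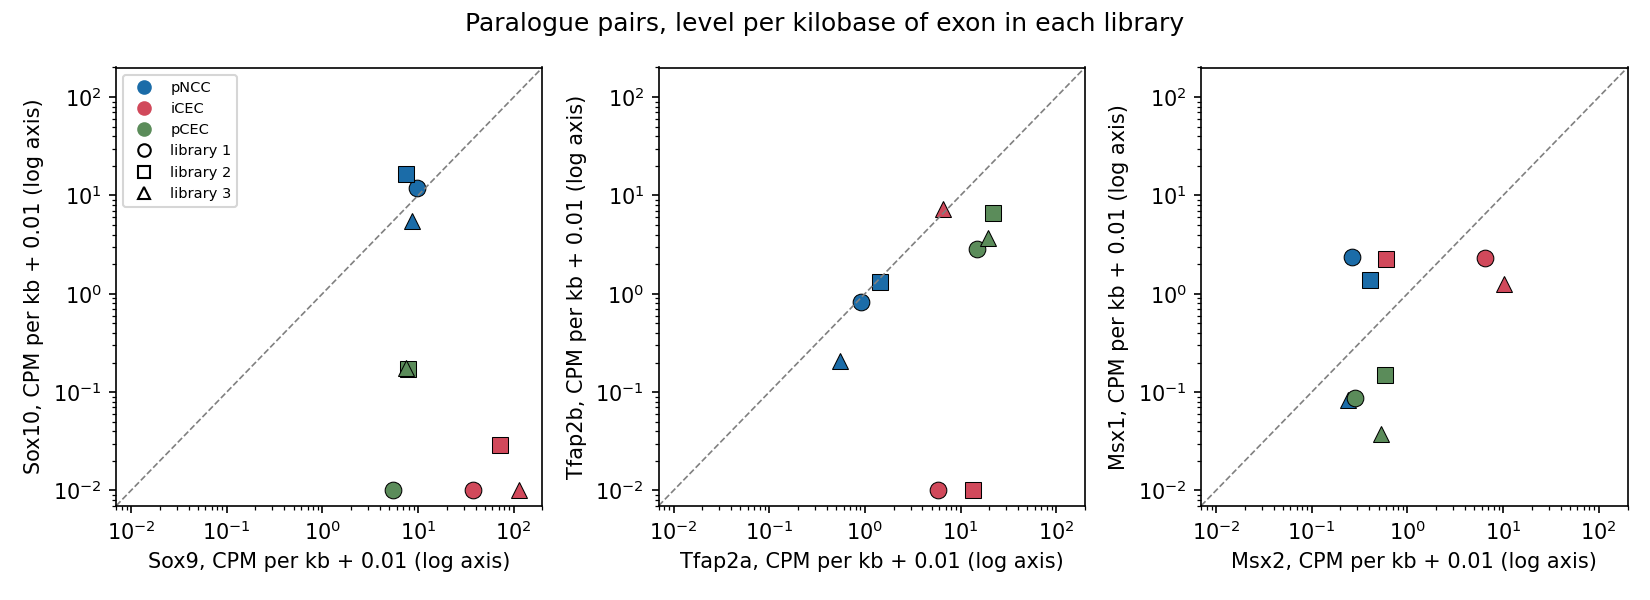
Level of 1 paralogue against the other in CPM per kb plus 0.01, on log axes, for Sox9 against Sox10, Tfap2a against Tfap2b and Msx2 against Msx1, with 1 point per library and a dashed line at equal level. The iCEC libraries lie far on the Sox9 side, and Msx2 against Msx1 crosses the line within pNCC and within iCEC.

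Further paralogues outside the 9 genes were measured. Tfap2c, the AP-2 gamma gene of surface ectoderm, was at 0.119 to 0.343 CPM in pNCC, 19.6 to 39.4 CPM in iCEC and 65.3 to 78.9 CPM in pCEC. It rose by 6.88 on the log2 scale in iCEC (edgeR adjusted p = 0.000788) and by 8.13 in pCEC. Tfap2e had 0 counts in all iCEC libraries and 6.80 to 10.1 CPM in pCEC. Ets2 was at 104 to 252 CPM over the 9 libraries and did not pass in any comparison. Sox8, the remaining SOXE gene, was at or below 0.372 CPM in every library.

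The other crest genes were read from 9 lists holding 68 genes. In iCEC against pNCC 8 rose and 15 fell of 41 tested, in pCEC against pNCC 12 rose and 22 fell of 41, and in iCEC against pCEC 4 were higher and 9 lower of 35. Their median log2 fold changes were -1.35, -2.54 and -0.27. Over all genes tested, 16.1% were higher and 15.1% lower in iCEC against pNCC, and 30.3% and 32.2% in pCEC against pNCC. In iCEC against pCEC the shares were 10.5% and 9.92%. These shares are the background for the counts of every crest list below. Among 8 genes of emigration and migration, 6 fell and none rose in iCEC, and all 8 fell in pCEC. Cdh11, a cadherin of migrating crest and mesenchyme, had 768 to 974 CPM in pNCC, 0.249 to 9.70 CPM in iCEC and 14.1 to 26.8 CPM in pCEC. Zeb2, a repressor of E-cadherin, fell by 3.52 on the log2 scale in iCEC (edgeR adjusted p = 0.0408), and fell by 6.53 in pCEC. Snai2, which represses E-cadherin in crest and is also found in basal epithelial cells, was at 38.8, 47.9 and 65.2 CPM in pNCC and 30.5, 36.8 and 82.0 CPM in iCEC. Its groups overlapped, with a log2 difference of 0.01 (adjusted p = 0.990), and in pCEC it fell by 0.94 (adjusted p = 0.00935). Fibroblast markers fell beside these genes, with 7 of 8 lower in iCEC against pNCC and 6 of 8 in pCEC, and their part in these falls was not tested.

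Of 7 plate border partners only 3 were tested against pNCC, where 1 fell in iCEC and 2 in pCEC. Pax3, a paired-box gene of the border and early crest, was at 11.7, 10.1 and 2.97 CPM in pNCC and at 10.7, 10.2 and 0 CPM in iCEC, with a log2 difference of -0.22 (edgeR adjusted p = 0.928), and at 0.0599 to 0.168 CPM in pCEC. Dlx5, a distal-less gene of the border and facial crest, was at 0.123, 0 and 10.8 CPM in iCEC. The 2 iCEC libraries with Pax3 were the 2 without Tfap2b, and the library with Dlx5 was the one with Tfap2b. Over all genes, the root mean square difference of log2 CPM was 0.64 and 0.67 between iCEC 3 and iCEC 1 and 2. Between iCEC 1 and 2 it was 0.41. A relation between Pax3, Dlx5 and Tfap2b was not tested. Zic1, a dorsal neural tube gene, was at 10.8 to 16.1 CPM in pNCC and at most 0.0821 CPM in iCEC. Of 7 multipotency genes, 5 were tested in iCEC against pNCC and 4 rose, among them Id2 by 3.38 (adjusted p = 0.00344), Id1 by 2.88 (adjusted p = 0.0130) and Myc by 1.02 (adjusted p = 0.0325) on the log2 scale.

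Among 7 crest receptors, 1 rose and 3 fell in iCEC, and 3 rose and 2 fell in pCEC. Over all genes tested 31.3% and 62.5% were called in these comparisons, so the pCEC count was near the background. Pdgfra, the PDGF receptor of crest mesenchyme, fell by 10.02 on the log2 scale in iCEC (edgeR adjusted p = 0.000623) and by 5.23 in pCEC. Kit, the stem cell factor receptor of melanoblasts and also of some epithelia, was at 0.416 to 0.731 CPM in pNCC, 12.4, 147 and 202 CPM in iCEC and 218 to 276 CPM in pCEC. Erbb3, the neuregulin receptor and a Sox10 target in crest glia, was at 19.4 to 58.7 CPM in pNCC, 77.7 to 155 CPM in iCEC and 264 to 295 CPM in pCEC. It thus had higher values where Sox10 was at or near 0, although the iCEC difference of 1.49 did not pass (adjusted p = 0.0529) and that of 2.77 in pCEC did (adjusted p = 0.000662).

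Targets of the 2 SOXE members were listed separately. Of 10 glial and pigment targets of Sox10, 6 were tested in iCEC against pNCC, 2 fell and none rose, and in pCEC 3 rose and 3 fell of 7. Mitf, the pigment cell factor, was at 9.39 to 12.4 CPM in pNCC and 5.07 to 18.1 CPM in iCEC, with overlapping groups (edgeR adjusted p = 0.878). Of 8 cartilage targets of Sox9, 2 of the 4 tested rose in iCEC against pNCC. Col2a1, the main collagen of cartilage, was at 0 to 0.309 CPM in pNCC and at 6.45, 1.46 and 8.59 CPM in iCEC (a rise of 5.02, adjusted p = 0.0273), and Col11a2 rose by 2.40 (adjusted p = 0.0432). Col11a1 was at 140 to 296 CPM in pNCC and 2.73, 41.7 and 113 CPM in iCEC, lower without overlap, and did not pass (-1.89, edgeR adjusted p = 0.247). Col9a1 was at 0 to 0.0995 CPM in iCEC. Of 9 skeletogenic and facial crest genes, 4 of 7 tested fell in iCEC and 6 of 6 in pCEC, none rose, and Prrx1 fell by 6.31 (adjusted p = 0.000797) in iCEC. Of 8 autonomic and sensory genes, 1 was tested in iCEC and none passed.

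**Figure D4:**
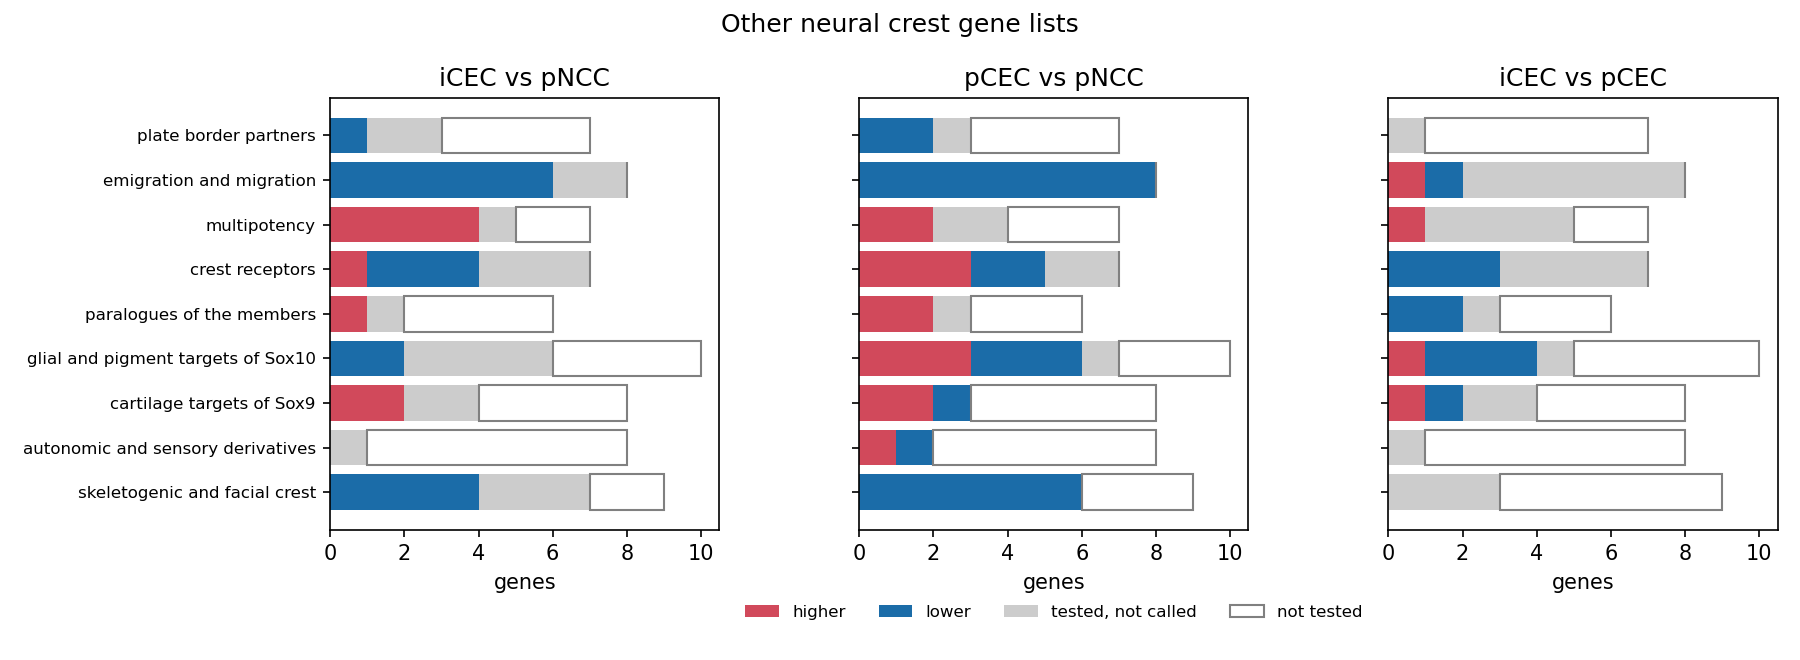
Number of genes higher, lower, tested but not called and not tested in each list, in the 3 comparisons, by edgeR at an adjusted p of 0.05. The emigration list is almost all lower against pNCC, and the multipotency list has no gene lower. Over all genes tested, 31.3% were called in iCEC against pNCC, 62.5% in pCEC against pNCC and 20.4% in iCEC against pCEC.

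The genes whose profile over the 9 libraries was nearest to each member were found among 17616 genes, by the root mean square difference of log2 CPM after centring each gene. Nearest to Sox10 were AW551984 (0.58) and Mmp9 (0.66), to Foxd3 Plxnb3 (0.55) and Epha5 (0.58), and to Ngfr Ppp1r3d (0.58) and A4galt (0.59). Nearest to Sox9 were Rdh10 (0.25) and Nupr1 (0.40), to Tfap2a Nup210 (0.35) and P2ry1 (0.37), and to Msx2 Prob1 (0.57) and Hmgcll1 (0.66). Nearest to Ets1 were Cfl1 (0.18) and Rgs19 (0.22), and to Msx1 Nos1 (0.69) and 2810429I04Rik (0.84). For Tfap2b the nearest, Shisa2 (1.25) and Itih5 (1.46), were farther off than the nearest of any other member. These distances describe 9 libraries in 3 groups and carry no test.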

How the data were processed

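RNA was measured by paired sequencing with reads of 150 bases in 9 mouse libraries, grouped by their titles, 3 per group. The authors deposited 1 table of raw counts per gene symbol. Per the submitters' processing notes, mm10 and edgeR were used, with no role or version stated. The aligner, counter and annotation are not given in the sources used here. Total counts were 27389292 to 47967113. The deposited counts were tested with edgeR 4.0.16 in R 4.3.3: filterByExpr, TMM factors, robust quasi-likelihood fit, each comparison on its own 6 libraries, Benjamini-Hochberg adjustment over all genes tested, threshold 0.05. Log2 fold changes are edgeR's, and the standard error was taken as |log2 fold change|/√F from the same test. Positions and exon lengths come from GENCODE M21 (mm10), to which all 9 members matched, and promoters from RefSeq (GRCm38.p6).

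The members and lists were chosen with earlier results of these data known. The text names all members with every library, up to 4 genes of each crest list by highest mean CPM, a few of the highest or defining genes of the marker lists (Cdh1, Trp63, Pax6, Cdh19, Ptprc and Cdh5 were chosen after their values were seen), and the 2 genes nearest each member. Melanocyte markers, not otherwise reported, summed to 11.1 to 13.0, 6.34 to 18.9 and 11.7 to 20.2 CPM in pNCC, iCEC and pCEC. Alternatives were DESeq2 1.42.0 (Wald test, and its size factors in edgeR), no filter, a filter of 1 CPM in 3 libraries, a fit over all 9 libraries, the replicate number as a block, polyA libraries alone, each library left out, and CPM on plain totals.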

Additional observations from a re-analysis of the deposited data

How the results depend on the processing

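Of 315 fold changes of the 9 genes under the alternatives, 271 kept their direction and side of the threshold, 36 no longer passed, 5 came to pass and 3 changed direction. Of 25 comparisons 18 were called, and 8 of these kept the call in every alternative run. The changes of direction were Tfap2b in iCEC against pNCC, at -10.52 without iCEC 3 (range -10.52 to 2.27 over the libraries left out) and -5.62 with the replicate block (edgeR adjusted p = 0.458), and Msx2 in pCEC against pNCC, at -0.10 with the polyA library alone. With each library left out in turn, genes called ranged from 2322 to 7684 in iCEC against pNCC (7684 without iCEC 3, 2322 without pNCC 2) and from 1131 to 4974 in iCEC against pCEC (1131 without pCEC 2), and members called from 4 to 8 and from 3 to 5. With the polyA library alone, iCEC against pCEC had 0 genes called, of 2529 at an unadjusted edgeR p under 0.05, and 0 members. Without a filter on low counts it had 3 members called. With 1 CPM in 3 libraries as the filter, Msx1 was not tested in pCEC against pNCC. The replicate block left 2864 genes called in iCEC against pNCC, and in iCEC against pCEC 1295 genes and 3 members. Under it the calls of Msx2 in iCEC against pNCC (3.82, edgeR adjusted p = 0.119) and of Msx2 (3.25, 0.189) and Ngfr (-4.48, 0.0591) in iCEC against pCEC did not pass. Deviations of same-numbered libraries correlated at -0.181 to 0.071, so the numbers gave no sign of a pairing. None of 27 group levels moved by over 1 SD on plain totals. Where a setting changed a result, the cause was not tested.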

Other observations

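Genes that were on in 1 iCEC library and off in the others were counted after the Tfap2b values had been seen, as genes at or above 5 CPM in 1 library with 0 counts in both others. There were 6 such genes in iCEC 1, 2 in iCEC 2 and 9 in iCEC 3. Those of iCEC 3 were Zfp521 (48.6 CPM), Tfap2b (45.8), Slc6a2 (27.8), Fam180a (22.7), Ebf3 (19.9), Scrg1 (18.7), Lgr5 (14.8), Kcns1 (12.6) and Plppr4 (6.94). Zfp521, Lgr5 and Ebf3 were also high in pNCC, at 77.1 to 128, 51.1 to 107 and 16.3 to 31.9 CPM. Slc6a2, the noradrenaline transporter, was at or below 0.386 CPM in pNCC and at 0 in pCEC. The genes of iCEC 2 were Tenm3 (21.3 CPM) and Cntnap4 (17.6), and those of iCEC 1 were led by Rec8 (22.5) and Rps4l (17.5). Isl1, a LIM homeobox gene of sensory and autonomic neurons, had the reverse pattern of Tfap2b within iCEC, at 5.15, 8.32 and 0 CPM, and was at or below 0.238 CPM in pNCC and 0.0611 CPM in pCEC. A relation between Isl1 and Tfap2b was not tested.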
